A study of Mus musculus with 9 samples.

Results

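The collagen chain genes are the rows of the expression table whose gene name is Col, a number, the letter a and a number, and each codes for 1 chain of a collagen. The rule found 44 such genes among the 34637 genes of the FPKM table, of which 11 code for fibrillar chains, 10 for chains of basement membranes and their anchoring structures, and 23 for other chains. The libraries were made from the back skin of male C57BL/6 mice, 6 to 8 weeks old, with dermatitis raised by DNCB, a small reactive molecule that sensitizes the skin on contact. Every mouse of both groups was sensitized with 1% DNCB on day 1 and challenged with 0.5% DNCB from day 4 to day 21. The FJDHF-M group (n = 5) was fed Fangji Dihuang formulation, a decoction of several medicinal plants, at the middle dose daily after day 7, the Model group (n = 4) was given water, and the experiment ended on day 28. Mice without DNCB were not analysed here, so no value below says how the dermatitis itself moved a collagen gene.

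The columns of the tables carry codes that neither the labels nor the paper explains. The 5 columns starting with MR (MR1, MR3, MR3_4, MR4_5 and MR5) were taken as FJDHF-M and the 4 starting with MXL (MXL1, MXL12, MXL3_4 and MXL_3) as Model, because their numbers match the group sizes and MX abbreviates the Chinese for model. Every direction given below rests on that assignment. No code could be tied to a particular mouse, and whether codes such as MR3_4 or MXL12 stand for pooled mice was not tested, so n counts libraries. Total counts lay between 74648669 and 79474215 per library. The groups could not be told apart by depth, but the libraries differed in how their counts followed the GC content of the transcripts, and that difference is given below before the comparison of groups, because several collagen genes varied with it by more than the difference between the groups.

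Collagens are the main structural proteins of skin. Each chain carries a stretch in which glycine recurs at regular steps of 3 amino acids, and 3 such chains wind into a triple helix, since only glycine is small enough for the centre of the helix. Fibrillar collagens (types I, III and V in the dermis) assemble into banded fibrils and are made mostly by fibroblasts. Type IV forms the network of basement membranes, type VII the fibrils that anchor the epidermis to the dermis, and type XVII is a transmembrane chain of the hemidesmosomes of basal keratinocytes. Chains are hydroxylated, folded and exported with dedicated enzymes and chaperones, trimmed outside the cell and then cross-linked.

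The glycine repeat is visible in the coding sequences. The 4 stretches below each show the first 15 Gly-X-Y triplets of the longest unbroken run of the chain, 135 bases of coding sequence joined across exons, read from the GENCODE M21 annotation of GRCm38, with the glycine codons in capitals. They are shown because the repeat is what all members share, and because its glycine codons (GGN) and the frequent proline codons (CCN) are themselves rich in G and C. The Col1a1 stretch spans chr11:94939451-94940144 (plus strand, exons 6 to 9), the Col1a2 stretch chr6:4512406-4515655 (plus strand, exons 6 to 9), the Col3a1 stretch chr1:45323762-45325849 (plus strand, exons 5 to 7) and the Col4a1 stretch chr8:11246881-11267614 (minus strand, exons 2 to 4).
Col1a1: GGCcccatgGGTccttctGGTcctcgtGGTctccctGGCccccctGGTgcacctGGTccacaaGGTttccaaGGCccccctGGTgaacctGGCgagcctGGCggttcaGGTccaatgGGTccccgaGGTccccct
Col1a2: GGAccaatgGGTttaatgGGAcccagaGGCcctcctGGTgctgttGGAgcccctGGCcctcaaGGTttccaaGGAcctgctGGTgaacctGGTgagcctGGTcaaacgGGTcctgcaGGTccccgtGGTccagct
Col3a1: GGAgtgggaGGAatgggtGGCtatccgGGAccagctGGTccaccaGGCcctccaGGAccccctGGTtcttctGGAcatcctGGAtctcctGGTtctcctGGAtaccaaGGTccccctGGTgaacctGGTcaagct
Col4a1: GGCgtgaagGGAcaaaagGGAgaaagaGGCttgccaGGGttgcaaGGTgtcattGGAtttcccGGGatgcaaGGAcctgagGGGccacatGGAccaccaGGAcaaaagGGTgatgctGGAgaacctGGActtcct

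The GC content of these stretches was 68.15% in Col1a1, 62.2% in Col1a2, 61.5% in Col3a1 and 56.3% in Col4a1. The repeat differed in length and continuity between classes. In Col1a1, Col1a2, Col3a1, Col5a1 and Col5a2 the longest run counted 338, 339, 344, 338 and 339 triplets, nearly the whole helix in 1 piece. Col4a1, a chain of the basement membrane network, had 439 triplets broken into 23 runs, the longest of 40, and Col7a1 had 474 triplets in 21 runs. In Col12a1 and Col14a1, which sit on the surface of fibrils, triplets made up 8.12% and 13.9% of the residues. Over the whole longest coding transcript of each gene, GC content was 58.9% for Col1a1, 55.7% for Col1a2, 52.5% for Col3a1, 57.7% for Col4a1, 61.6% for Col7a1 and 48.3% for Col12a1.

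Fibrillar chains held most of the collagen expression in both groups. FPKM values were deposited by the authors and are corrected for the length of the gene and the depth of the library. They are used wherever levels of different genes are set side by side. The order of the genes and their shares thus depend on the gene length used. In Col6a1 and Col6a2 the annotated exons cover 4380 and 8326 bases, and the coding sequences 3075 and 2799. In MR1 these genes were at 198 and 76.3 FPKM, but at 69468 and 50876 counts. Fibrillar genes also led in counts, at 2.12% of all counts in FJDHF-M and 3.00% in Model. All collagen genes took 2.53% and 3.39%. Other gene lengths were not tested. Over all libraries, Col3a1 had a mean of 1168 FPKM, Col1a1 638 FPKM and Col1a2 550 FPKM, and these 3 genes held 78.1% of the summed collagen FPKM. The 4th of the order was Col6a1, a chain of the microfibrils around fibrils, at 147 FPKM. Of the 44 genes, 4 averaged above 100 FPKM, 11 lay from 10 to 100, 14 from 1 to 10 and 15 under 1 FPKM. The last group holds the cartilage chains Col2a1, Col9a1, Col9a2, Col9a3 and Col11a2, which averaged 0.219 FPKM or less. Col9a1 and Col9a2 were listed at 0 counts in 6 of the 9 libraries each, with at most 11 and 10 counts in the others, and did not pass the filter on low counts. Thus 42 members were tested.

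Within libraries, the order at the top was partly fixed and partly not. Col3a1 exceeded Col1a1 in 9 of 9 libraries, by 1.08 ± 0.77 (SD, n = 9) on the log2 FPKM scale. Col1a1 exceeded Col1a2 in only 6 of 9 libraries, and the mean difference of 0.0085 ± 0.72 was far smaller than its spread. This order depends on the gene length used. The annotated exons cover 6563 bases in Col1a1 and 12426 in Col1a2, while the coding sequences have 4359 and 4116 bases. In counts, not corrected for length, Col1a2 exceeded Col1a1 in every library (594487 against 439360 in MR1, 461068 against 106382 in MR5). Col1a2 exceeded Col6a1 in 9 of 9 libraries, by 1.90 ± 0.38. From the 6th to the 13th place (Col6a3, Col6a2, Col14a1, Col5a1, Col4a1, Col17a1, Col12a1 and Col4a2), neighbours differed by less than their spread over libraries.

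**Figure D1:**
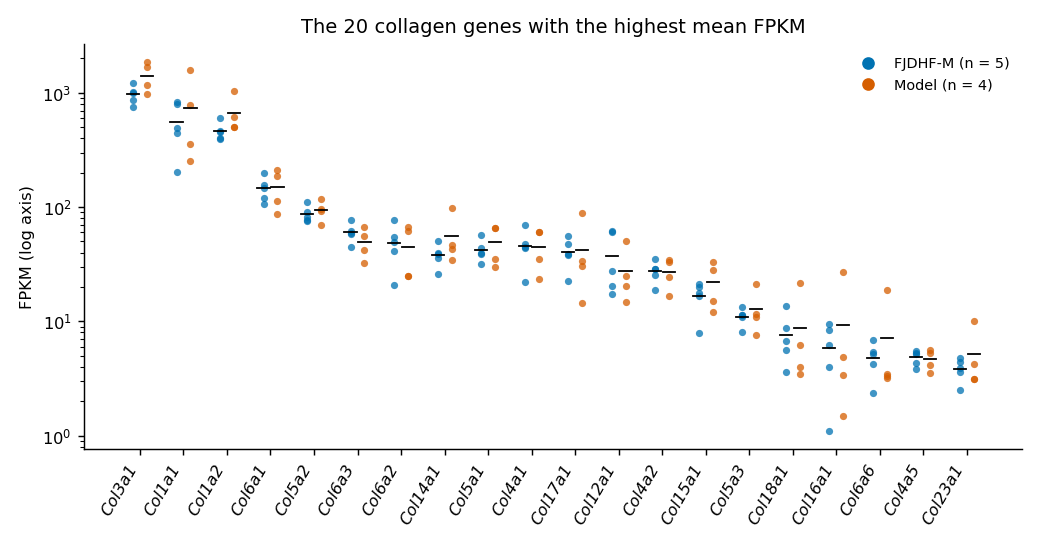
FPKM on a log axis of the 20 collagen genes with the highest mean, 1 point per library, blue for FJDHF-M and orange for Model, with a bar at the mean of each group. Col3a1, Col1a1 and Col1a2 stand above all others, and Col1a1 spreads from 201 to 1574 FPKM while Col3a1 spreads from 758 to 1845 FPKM.

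The summed level of all collagen genes differed more between libraries of a group than between the groups. Collagen genes took 2.53% ± 0.46 (SD, n = 5) of all counts in FJDHF-M and 3.39% ± 1.25 (n = 4) in Model. By library the share was 3.27% in MR1, 2.69% in MR3, 2.25% in MR3_4, 2.16% in MR4_5 and 2.27% in MR5, against 4.96% in MXL1, 2.53% in MXL12, 2.25% in MXL3_4 and 3.82% in MXL_3. MXL1 and MXL_3 were higher than every FJDHF-M library, whereas MXL12 and MXL3_4 lay inside the FJDHF-M range. The fibrillar genes set this pattern, with 2131 ± 469 summed FPKM in FJDHF-M and 2980 ± 1258 in Model. The summed FPKM of the basement membrane chains was 152 ± 32 in FJDHF-M and 156 ± 66 in Model, and that of the other chains was 354 ± 60 and 360 ± 113.

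The libraries tilted with GC content in different directions. The tilt of a library, its GC slope, is the change in the log2 deviation from the mean of all libraries per 10 points of transcript GC content, estimated over 15707 expressed genes. It was 0.54 in MXL1, 0.44 in MR3, 0.14 in MR1, 0.11 in MR3_4, 0.10 in MXL_3, 0.02 in MR4_5, -0.25 in MXL3_4, -0.55 in MR5 and -0.56 in MXL12. Both groups held libraries of either sign. Genes of 60% GC deviated on average by 0.90 (log2) in MXL1 and by -0.85 in MXL12. The members run from 45.9% GC (Col25a1) to 62.9% GC (Col11a2).

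Many collagen genes followed this tilt, in a direction that went broadly with their composition. The correlation of log2 CPM (counts relative to the TMM-scaled library size) with the GC slope of the library was 0.95 for Col16a1, 0.94 for Col1a1 and 0.93 for Col18a1 (n = 9 libraries each, as a description), all with transcripts above 58% GC. It was 0.43 for Col1a2, 0.31 for Col3a1, 0.06 for Col5a2 and -0.78 for Col12a1. Over the 42 members tested, the Spearman correlation of GC content with this value was 0.70, a description across genes that share the same 9 libraries. A correlation over 0.5 was seen in 16 members, none of them below 52.3% GC, and one under -0.5 in 3 members (Col12a1, Col24a1 and Col25a1), none above 51.0% GC. GC-rich members did not all follow the tilt, with 0.02 for Col27a1 (59.4% GC), 0.18 for Col13a1 (59.1%) and 0.21 for Col17a1 (57.0%). Nor did GC content order every pair. The FPKM ratio Col4a2/Col4a1 fell along the slope (r = -0.90), although Col4a2 has 60.6% GC and Col4a1 57.7%. Col5a1/Col1a1 fell too (r = -0.96), at 58.0% and 58.9% GC. After the fitted GC curve of each library was subtracted, the median SD of the members over libraries went from 0.55 to 0.46 on the log2 scale and was smaller in 26 of 42 members. What made the libraries tilt was not tested.

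**Figure D2:**
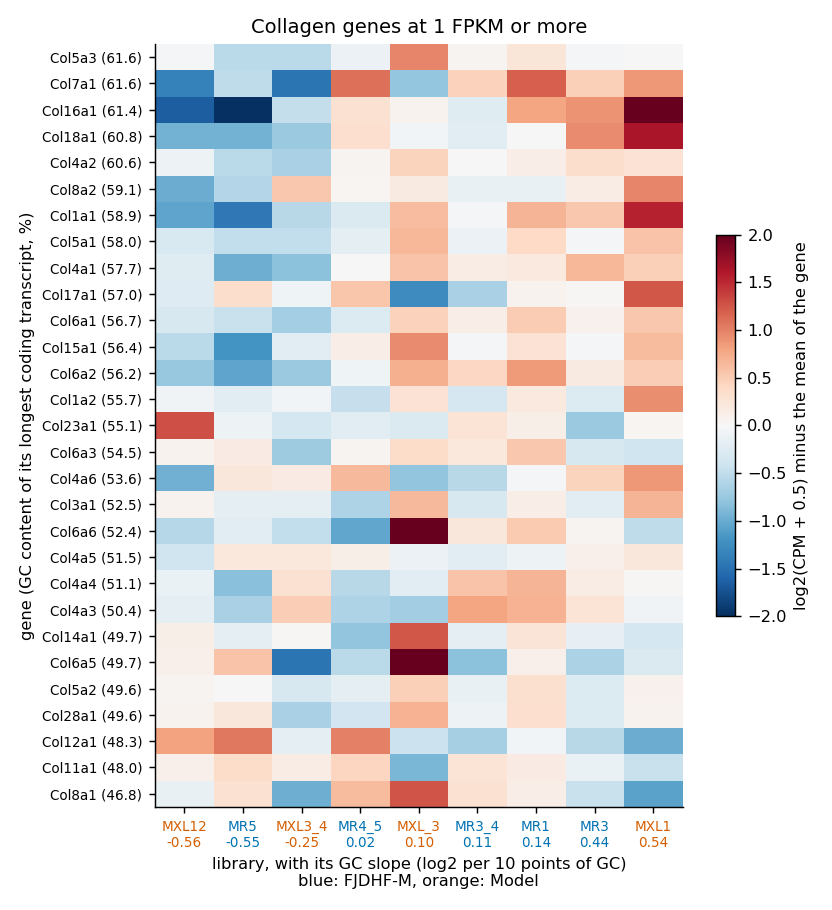
Deviation of log2(CPM + 0.5) from the mean of the gene, for the collagen genes at 1 FPKM or more, sorted from high to low transcript GC content (rows) and from the lowest to the highest GC slope of the library (columns, blue names FJDHF-M, orange names Model). Most of the upper rows run from blue on the left to red on the right, as in Col16a1, Col18a1 and Col1a1, while Col12a1 near the bottom runs the other way, and Col6a5, Col6a6 and Col14a1 are reddest in MXL_3.

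The ratio of the chains of type I collagen followed the tilt. A type I molecule is built from a pair of α1 chains and a single α2 chain. The FPKM ratio of Col1a1 to Col1a2 was 1.40 in MR1, 1.76 in MR3, 1.24 in MR3_4, 1.13 in MR4_5 and 0.437 in MR5, and 1.52 in MXL1, 0.510 in MXL12, 0.711 in MXL3_4 and 1.26 in MXL_3. It thus varied 4.04-fold, and the libraries at the low end came from both groups. The absolute size of the ratio depends on the gene lengths behind the FPKM. The ratio followed the GC slope with Pearson's r = 0.97 (exact permutation p = 8.54e-05) and Spearman's rho = 0.95 (exact permutation p = 0.000353) over the 9 libraries, and r was 0.91 over 7 libraries without MXL12 and MR5. This relation was chosen after the values were seen. In GC-corrected CPM the ratio still varied 2.81-fold.

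No chain ratio differed between the groups after adjustment over the 8 ratios. The mean log2 ratio of Col1a1 to Col1a2 was 0.12 ± 0.77 in FJDHF-M and -0.13 ± 0.73 in Model (difference 0.25, two-sided exact permutation p = 0.683, adjusted over 8 ratios 0.984). The largest difference was that of Col7a1 to Col17a1, anchoring fibril to hemidesmosome, at -2.95 ± 0.80 in FJDHF-M and -3.99 ± 0.82 in Model (difference 1.04, exact permutation p = 0.0952, adjusted 0.762). In GC-corrected CPM this difference was 1.10 (exact permutation p = 0.0476, adjusted 0.381). The other 6 ratios (Col3a1/Col1a1, Col5a1/Col1a1, Col5a2/Col5a1, Col4a2/Col4a1, Col6a1/Col6a2 and Col6a3/Col6a1) differed by -0.30 to 0.30 with an adjusted p of 0.984 each. With 4 against 5 libraries the smallest p this test can give is 0.00794.

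**Figure D3:**
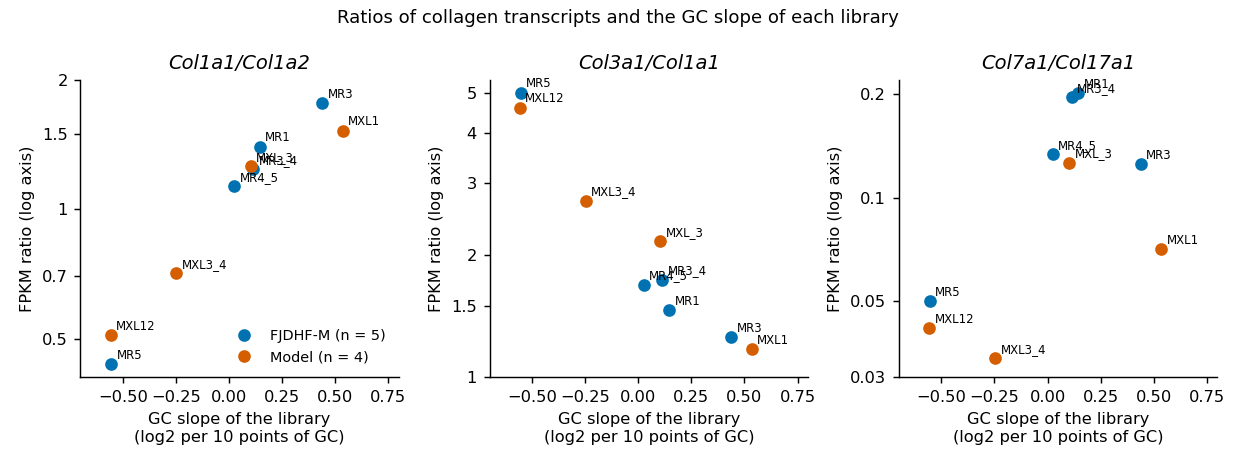
FPKM ratios (log axes) of Col1a1/Col1a2, Col3a1/Col1a1 and Col7a1/Col17a1 against the GC slope of each library, 1 point per library, blue for FJDHF-M and orange for Model. Col1a1/Col1a2 climbs and Col3a1/Col1a1 drops along the slope irrespective of group (r = 0.97 and -0.97), whereas Col7a1/Col17a1 does so less closely (r = 0.60).

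No collagen gene differed between FJDHF-M and Model after adjustment over all genes. The edgeR fit called 0 of 20817 genes (0.0%) at an adjusted p under 0.05, with or without correction for GC content (the smallest adjusted p was 1.00), and DESeq2's Wald test called 2 genes, no collagen among them. At an unadjusted p under 0.05, 2 of 42 members were lower in FJDHF-M (Col3a1 and Col6a4, background 0.759% of all tested genes) and 0 were higher (background 0.773%). Groups without overlap were seen in 1 member, Col6a4, which was lower in FJDHF-M (background 0.283%), and in 0 members that were higher (background 0.231%). With GC offsets, an alternative added after the data were seen, 3 members were lower at an unadjusted p under 0.05 (Col1a2, Col3a1 and Col6a4, background 0.975%) and 2 were higher (Col7a1 and Col11a1, background 0.927%). On GC-corrected CPM, Col6a4 was again the 1 member without overlap (lower, background 0.413%; higher 0, background 0.288%). These are counts of 1 to 3 genes at an unadjusted threshold, and the members were listed with earlier results of these data known.

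By class, the median log2 fold change (FJDHF-M over Model) was -0.25 over 11 fibrillar genes, 0.01 over 10 basement membrane genes and -0.14 over 21 other genes, against -0.03 over all 20817 genes. Of the 42 members 17 were above 0 and 25 below, and 55.9% of all tested genes were below 0. The fibrillar median depended on single Model libraries, since it was 0.21 without MXL1 and 0.0066 without MXL_3, and the median of the other chains moved to as much as 0.12 when single libraries were left out. In the skin as a whole, fewer cells of a type and less RNA per cell cannot be told apart.

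**Figure D4:**
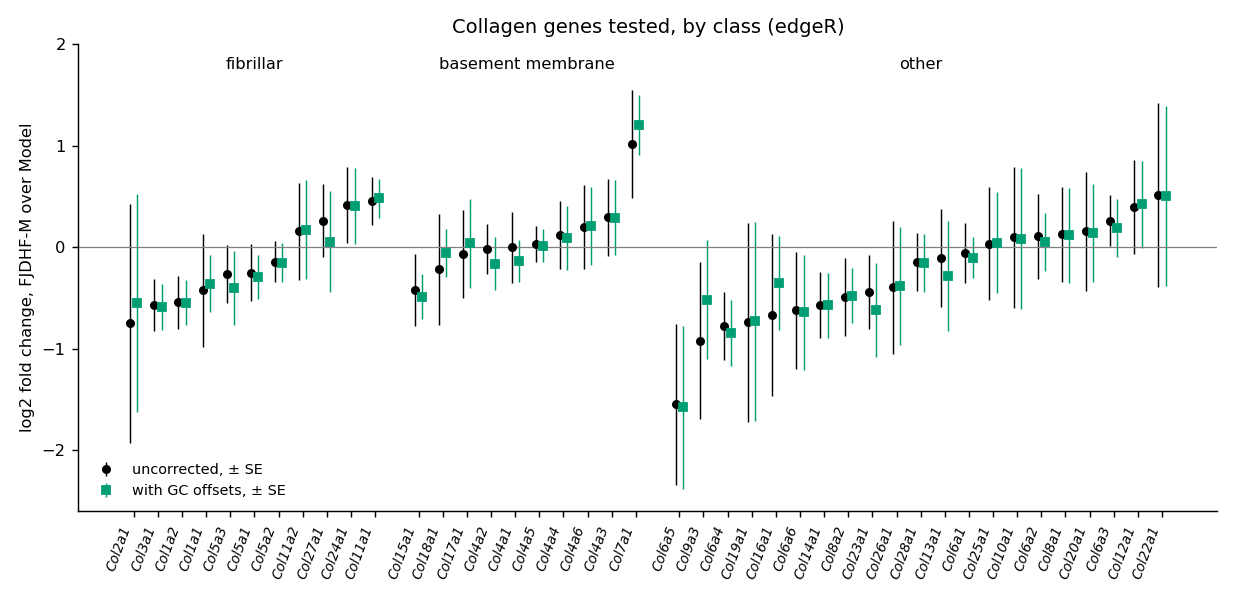
Log2 fold change of FJDHF-M over Model ± SE for the 42 collagen genes tested, by class and sorted within it, without correction (black circles) and with GC offsets (green squares). Most black intervals span 0, Col7a1 is the highest point in both fits, and Col6a5, the lowest, has an SE of 0.79.

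The chains of the main dermal fibrils were lower on average in FJDHF-M. Col3a1 (ENSMUSG00000026043, chr1:45311538-45349706, plus strand), the type III chain abundant in elastic and healing skin, was at 1221, 996, 861, 758 and 1009 FPKM in MR1, MR3, MR3_4, MR4_5 and MR5, and at 1845, 1170, 968 and 1685 FPKM in MXL1, MXL12, MXL3_4 and MXL_3. MXL1 and MXL_3 stood above all FJDHF-M libraries, while MXL12 and MXL3_4 lay among them, so the groups overlapped. The means were 969 ± 175 and 1417 ± 415 FPKM, and the log2 fold change was -0.57 ± 0.25 (SE; edgeR p = 0.0477, adjusted p = 1.00; exact permutation p = 0.0794). It stayed between -0.71 and -0.44 when single libraries were left out, the smaller sizes coming without MXL1 (-0.44) and MXL_3 (-0.46).

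Col1a2 (chr6:4504814-4541544, plus strand), the α2 chain of type I collagen, lay close behind. It was at 598, 451, 399, 397 and 460 FPKM in the FJDHF-M libraries in the same order, and at 1033, 498, 500 and 618 FPKM in the Model libraries. Only MR1 reached into the Model range. Its log2 fold change was -0.54 ± 0.26 (edgeR p = 0.0636, adjusted p = 1.00; exact permutation p = 0.0794), and -0.27 without MXL1. With GC offsets it was -0.55 ± 0.22 (unadjusted p = 0.0325) and lay between -0.70 and -0.46 over the fits with single libraries left out.

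Col1a1 (chr11:94936224-94953042, plus strand), the α1 partner of Col1a2, was at 836, 795, 496, 449 and 201 FPKM in FJDHF-M and at 1574, 254, 356 and 779 FPKM in Model. The groups overlapped almost entirely and MXL1 stood apart at the top. The log2 fold change of -0.43 ± 0.55 (edgeR p = 0.458, adjusted p = 1.00; exact permutation p = 0.746) turned to 0.21 when MXL1 was left out. MXL1 was also the library with the highest GC slope. With GC offsets the fold change of Col1a1 was -0.36 ± 0.28 (unadjusted p = 0.227) and stayed below 0 whichever library was left out (-0.55 to -0.15), and the SD of its log2 CPM over libraries went from 0.94 to 0.46.

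The minor fibril chains differed less. Col5a1 and Col5a2, type V chains that help set the diameter of fibrils, had log2 fold changes of -0.25 ± 0.28 and -0.14 ± 0.20 (adjusted p = 1.00 each). Col11a1, a type XI chain best known from cartilage, went the other way, at 2.77, 2.36, 2.92, 3.50 and 3.31 FPKM in FJDHF-M against 1.86, 2.68, 2.73 and 1.26 FPKM in Model. MR3 was the FJDHF-M library inside the Model range. Its log2 fold change was 0.45 ± 0.24 (edgeR p = 0.0837, adjusted p = 1.00; exact permutation p = 0.0952) and 0.48 ± 0.19 with GC offsets (unadjusted p = 0.0313). Of the 11 fibrillar genes, 7 had a fold change below 0 and 4 above.

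Among the chains of the basement membrane zone, Col7a1 had the largest increase of any member. Col7a1 (ENSMUSG00000025650, chr9:108953586-108984875, plus strand) codes for type VII collagen, whose loss causes dystrophic epidermolysis bullosa. It was at 7.63, 4.84, 4.41, 7.46 and 2.38 FPKM in MR1, MR3, MR3_4, MR4_5 and MR5, and at 6.27, 1.27, 1.16 and 1.85 FPKM in MXL1, MXL12, MXL3_4 and MXL_3. Only MXL1 among the Model libraries exceeded the lowest FJDHF-M library, MR5. The means were 5.35 ± 2.21 and 2.64 ± 2.44 FPKM, with a log2 fold change of 1.01 ± 0.53 (edgeR p = 0.0850, adjusted p = 1.00; exact permutation p = 0.0952). MXL1 decided the size of this value, since the fold change was 1.86 without it.

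Col7a1 has a GC-rich transcript, MXL1 has the highest GC slope of the Model libraries and MR5 the lowest of the FJDHF-M libraries. After GC correction Col7a1 was at 71.0, 31.1, 44.0, 79.4 and 47.3 CPM in the FJDHF-M libraries and at 32.2, 26.2, 17.6 and 18.8 CPM in the Model libraries, so that MXL1 no longer stood apart and overlapped only with MR3. The log2 fold change with GC offsets was 1.20 ± 0.30 (unadjusted p = 0.00239, adjusted p = 1.00; exact permutation p = 0.0317), and it lay between 1.03 and 1.39 over the fits with single libraries left out. The correction lowered the SD of log2 CPM over libraries from 1.04 to 0.76 for Col7a1. For Col5a3, of nearly the same GC content (61.6%), it raised that SD from 0.45 to 0.64. There MXL1 went from 80.4 to 39.0 CPM, the lowest library, and MXL12 from 79.2 to 150 CPM, the highest. The marker values that follow are from the fit and the CPM without GC correction. Markers of differentiated keratinocytes were higher in FJDHF-M, with a median log2 fold change of 0.75 over 10 genes. Of these genes 5 were higher at an unadjusted p under 0.05 (background 0.773% of all tested genes). Their mean level (log2 CPM) was 8.73 to 9.45 in FJDHF-M and 7.59 to 8.89 in Model. Markers of basal keratinocytes, which make type VII collagen, had a median of 0.01, 0 of 10 genes at an unadjusted p under 0.05, and levels of 6.86 to 7.92 and 6.44 to 8.08. None of the markers was at or near 0 in all libraries. Their part in the Col7a1 difference was not tested.

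The other chains of this zone did not reach an increase of that size. Their log2 fold changes ran from -0.42 ± 0.35 (Col15a1) to 0.29 ± 0.38 (Col4a3). With GC offsets Col15a1 was at -0.49 ± 0.22 (edgeR unadjusted p = 0.0513). Of all 10 genes of the class, 5 were above 0 and 5 below. Col17a1 was at 37.8, 38.7, 22.5, 55.9 and 47.7 FPKM in FJDHF-M and at 88.7, 30.4, 33.9 and 14.6 FPKM in Model, with MXL1 highest and MXL_3 lowest of all. Its log2 fold change was -0.06 ± 0.43, and it changed sign with GC offsets (0.04) and without MXL1 (0.57). Col4a1 and Col4a2, the ubiquitous pair of type IV chains, had means of 45.6 ± 16.9 and 27.3 ± 6.0 FPKM in FJDHF-M and 44.8 ± 18.4 and 27.2 ± 8.4 FPKM in Model. Their log2 fold changes were -0.0025 ± 0.35 and -0.02 ± 0.24 (adjusted p = 1.00 each), with no stable direction across scalings. The type IV genes lie in head-to-head pairs on opposite strands, Col4a1 (chr8:11198423-11312826) with Col4a2 (chr8:11312805-11449287), Col4a4 (chr1:82448423-82586849) with Col4a3 (chr1:82586921-82722059) and Col4a6 (chrX:141165403-141474076) with Col4a5 (chrX:141475385-141689234). The annotated ends of Col4a1 and Col4a2 overlap, so that reads at their shared end can be assigned to either gene if strand was not used in counting.

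The type VI chains, which form beaded microfilaments at the surface of cells and around fibrils, split into common and rare members. Col6a1, Col6a2 and Col6a3 had means of 146 ± 35, 48.5 ± 20.1 and 59.9 ± 11.6 FPKM in FJDHF-M and 150 ± 59, 44.4 ± 22.6 and 49.1 ± 15.1 FPKM in Model. Their log2 fold changes were -0.06 ± 0.29, 0.11 ± 0.42 and 0.26 ± 0.25 (adjusted p = 1.00 each). The sign of Col6a1 and Col6a2 changed when single libraries were left out, while Col6a3 stayed between 0.10 and 0.46.

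Col6a4, a long type VI chain, was the member whose groups did not overlap. Its gene (ENSMUSG00000032572, chr9:105989454-106072409, minus strand) had 54, 122, 47, 115 and 73 counts in MR1, MR3, MR3_4, MR4_5 and MR5, and 128, 127, 148 and 145 counts in MXL1, MXL12, MXL3_4 and MXL_3. All Model libraries stood above all FJDHF-M libraries, but MR3 with 122 counts was close to MXL12 with 127. After GC correction the nearest libraries, MR4_5 and MXL1, were both at 1.41 CPM to 3 digits. The level was low, at 0.119 ± 0.049 FPKM in FJDHF-M and 0.197 ± 0.015 FPKM in Model, and the log2 fold change was -0.77 ± 0.33 (edgeR p = 0.0415, adjusted p = 1.00; exact permutation p = 0.0159). The gene overlaps Gm36993 and Gm47575 on the opposite strand, whose reads cannot be told apart from it if strand was not used in counting.

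Col6a5, its neighbour on the same strand, had the largest decrease, -1.55 ± 0.79 (edgeR p = 0.0791, adjusted p = 1.00; exact permutation p = 0.635), and that value came from 1 library. Its level was 1.36, 0.840, 0.674, 0.904 and 1.98 FPKM in FJDHF-M and 1.07, 1.38, 0.425 and 10.01 FPKM in Model. Without MXL_3, the library at 10.01 FPKM, the log2 fold change was 0.25. In MXL_3 the next gene of the cluster, Col6a6, was also highest, at 18.8 FPKM against at most 6.84 FPKM elsewhere, and so was Col14a1, a chain on the surface of fibrils, at 97.8 FPKM against at most 51.0 FPKM. MXL_3 had the highest level of skeletal muscle markers (10.5, others 5.49 to 9.56 in log2 CPM) and of fibroblast (6.69, others 5.50 to 6.66), endothelial (5.78, others 4.39 to 5.37) and smooth muscle and pericyte markers (6.45, others 5.11 to 6.29). It had the lowest level of basal (6.44, others 6.86 to 8.08) and differentiated keratinocyte markers (7.59, others 7.90 to 9.45). The part of these markers in the levels of Col6a5, Col6a6 and Col14a1 was not tested. The log2 fold change of Col14a1 was -0.57 ± 0.32 (edgeR p = 0.108, adjusted p = 1.00; exact permutation p = 0.254), and -0.12 without MXL_3.

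**Figure D5:**
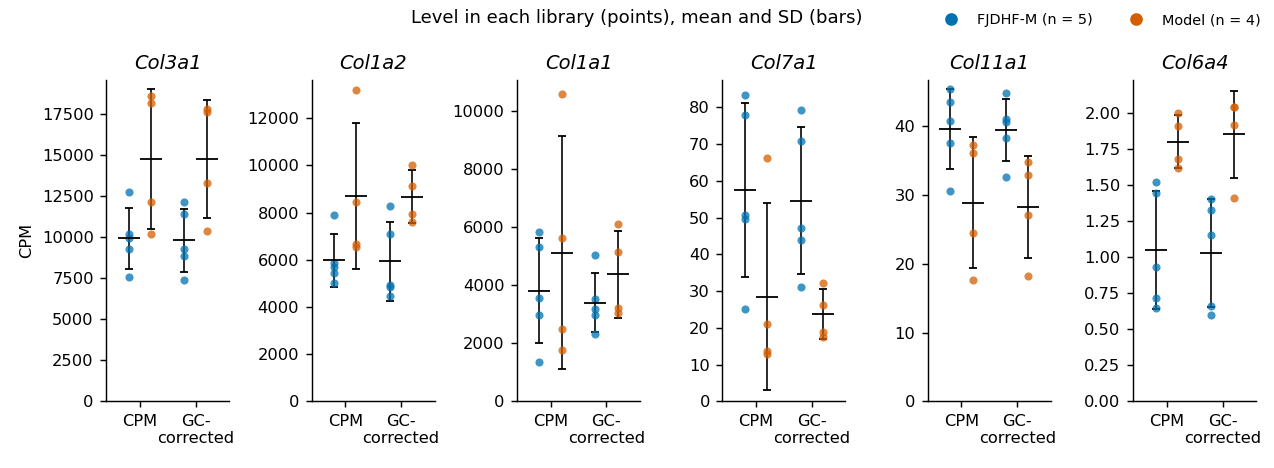
CPM of 6 collagen genes in each library (points, blue for FJDHF-M and orange for Model), with the mean and SD of each group as bars, before (left in each panel) and after (right) correction for GC content. The single high Model point of Col7a1 and Col1a1, MXL1, moves toward the other Model points after correction, and in Col6a4 the groups do not overlap on either scale but meet at 1.41 CPM after correction.

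Col12a1, a chain of the same kind as Col14a1, split the libraries without regard to group. It was at 60.2 and 61.6 FPKM in MR4_5 and MR5 and at 50.2 FPKM in MXL12, and between 14.9 and 27.4 FPKM in the other 6 libraries. Its log2 fold change was 0.39 ± 0.47 (edgeR p = 0.417, adjusted p = 1.00; exact permutation p = 0.476). The other members that the naming rule picked for their size were rare. Col9a3, a cartilage chain, had a log2 fold change of -0.92 ± 0.77, which became 0.48 without MXL1, where it had 273 counts against 12 to 77 elsewhere. Col22a1, found at tissue junctions, had a log2 fold change of 0.51 ± 0.91 on 0 to 58 counts per library.

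Across libraries, some collagen genes followed each other or the markers of the cells that make them. Of 8 relations, Col4a1 with Col4a2 was the closest, with r = 0.98 (exact permutation p = 0.000107, adjusted 0.000860) and rho = 0.95 (p = 0.000353, adjusted 0.00282) over the 9 libraries, and r = 0.95 without MR5 and MXL3_4. Col17a1 followed the basal keratinocyte markers (r = 0.87, exact permutation p = 0.00231, adjusted 0.00926; rho = 0.80, p = 0.0138, adjusted 0.0369; r = 0.65 without MXL_3 and MXL1). Col1a1 followed Col4a1 (r = 0.84, exact permutation p = 0.00467, adjusted 0.0125; rho = 0.83, p = 0.00827, adjusted 0.0331; r = 0.78 without MXL1 and MR5). Col4a1 followed the endothelial markers (r = 0.81, exact permutation p = 0.00806, adjusted 0.0161; rho = 0.75, p = 0.0255, adjusted 0.0510; r = 0.67 without MR5 and MXL3_4).

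The remaining relations did not pass the adjusted threshold. For Col1a1 with Col1a2, r was 0.68 (exact permutation p = 0.0395, adjusted 0.0632; rho = 0.53, p = 0.148, adjusted 0.162) and dropped to 0.37 without MXL1 and MR5, so it rests on those libraries. Col1a1 with Col3a1 (r = 0.59, rho = 0.52), with the fibroblast markers (r = 0.50, rho = 0.62) and with the skeletal muscle markers (r = 0.57, rho = 0.63) had adjusted exact permutation p values of 0.114 to 0.169. Without MXL1 and MR5, r dropped to 0.37 with Col3a1 but rose to 0.66 with the fibroblast and 0.81 with the skeletal muscle markers. In GC-corrected CPM none of the 8 relations passed the adjusted threshold. There r was 0.55 for Col4a1 with Col4a2 (adjusted exact permutation p = 0.243) and 0.21 for Col1a1 with Col4a1 (adjusted 0.588). It was 0.77 for Col17a1 with the basal keratinocyte markers (adjusted 0.121) and 0.64 for Col4a1 with the endothelial markers (adjusted 0.174). Without the 2 libraries farthest from the median, these values were 0.52, 0.19, 0.33 (without MXL_3 and MR3_4) and 0.04 (without MXL3_4 and MXL_3). The SD of the log2 Col4a2/Col4a1 ratio over libraries was larger in GC-corrected CPM, at 0.36 against 0.23 in FPKM. With the correction the SD of log2 CPM went from 0.38 to 0.42 for Col4a2 and from 0.58 to 0.32 for Col4a1. Each group holds fewer than 6 libraries, so no relation was computed within groups.

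The genes that modify, fold, process and cross-link the chains showed little difference between the groups. Of 62 genes tested in 6 lists, 1 had an unadjusted p under 0.05, against 1.53% of all tested genes. None was among the 15 prolyl and lysyl hydroxylases and their partners (median log2 fold change -0.04, range -0.31 to 0.16), the 8 procollagen processing genes (median -0.01, range -0.47 for Pcolce to 0.36 for Tll2) or the 9 collagen receptors tested (median -0.12, range -0.39 for Ddr1 to 0.41 for Lair1). Fold changes below 0 were seen in 47 of the 62 genes, against 55.9% of all tested genes. All 10 genes of folding and secretion had a fold change below 0 (median -0.19), lowest in Serpinh1, the collagen chaperone, at -0.37, and so did all 5 lysyl oxidases (median -0.15), lowest in Lox at -0.29, but 0 of these 15 had an unadjusted p under 0.05. With GC offsets, 3 of the 10 folding and secretion genes were above 0 (Tmem38b, Mia2 and Pdia3, at most 0.044) and their median was -0.13, while all 5 lysyl oxidases stayed below 0.

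The 1 gene was Ltbp2, which codes for a matrix protein bound to elastic microfibrils and belongs to the family that binds latent TGF-beta. It was at 11.9, 16.3, 11.1, 11.2 and 10.4 CPM in FJDHF-M and at 31.3, 15.4, 14.8 and 23.6 CPM in Model. MR3 was the FJDHF-M library inside the Model range. The log2 fold change was -0.80 ± 0.26 (edgeR p = 0.0116, adjusted p = 1.00; exact permutation p = 0.0476). With GC offsets Ltbp1 joined it (-0.38 ± 0.16, unadjusted p = 0.0396), and the median of the 15 genes of the TGF-beta axis, the growth factor pathway that drives collagen synthesis in fibroblasts, was -0.11 without and -0.10 with the correction. Of these 15 genes, 12 were below 0 without the correction and 14 with it, against 55.9% and 56.1% of all tested genes. Fibroblast markers had a median log2 fold change of -0.17 over 10 genes, with 0 at an unadjusted p under 0.05 and levels of 5.50 to 6.66 in FJDHF-M and 5.88 to 6.69 in Model.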

How the data were processed

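Back skin RNA of both groups was selected by poly(A), made into stranded libraries and read in pairs. The authors deposited whole-number read counts per gene without normalization for 55401 genes, and FPKM values for 34637 genes with names and positions. The submitters' processing notes name HISAT, StringTie and DESeq2 and the build mm10 (GRCm38), and the annotation release and the use of strand in counting are not given in the sources used here. A copy of the counts in 9 columns of the FPKM table was identical and was not used. The floor of detection was set at 3 counts, or 0.0377 to 0.0402 CPM by library. It covers counting error only, because PCR duplicates count repeatedly.

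The groups were compared with edgeR 4.0.16 under R 4.3.3 (TMM scaling, filterByExpr, robust quasi-likelihood test, Benjamini-Hochberg adjustment over all tested genes, no covariate). Where nothing says that samples were separate animals, p values measure only the spread between libraries. Single genes and ratios used two-sided exact permutation tests on log2(CPM + 0.5) and on log2 FPKM ratios with a pseudocount of 0.1. Marker levels are means of log2(CPM + 0.5). Alternatives were DESeq2 1.42.0 (size factors and Wald test), limma 3.58.1 on log2(FPKM + 1), other filters on low counts, the skeletal muscle markers as covariate, each library left out, a replicate block, another pseudocount and FPKM in place of CPM. GC offsets (lowess per library on the GC content of the longest coding transcript, span 0.3, GENCODE M21, for 20787 of 20817 genes) were added after the data were seen. All 44 members had an identifier in M21. No protein table was used, so repeats were read from translated coding sequences, with a run of at least 3 triplets. Steps were tested on simulated data.

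Members and gene lists were chosen with earlier results of these data known. Named with values were 14 collagen genes of skin fixed by name, members with an unadjusted p under 0.05 or without overlap, the 3 largest increases and decreases, and genes of the pathway lists with an unadjusted p under 0.05. Any further gene was picked with its values in view. Figures were drawn with matplotlib 3.10.9.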

Additional observations from a re-analysis of the deposited data

Results flagged for a closer look

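In a group of 4 or 5 libraries, a library whose gap to its nearest neighbour takes up most of the range of the group stands apart from the others (Dixon's ratio, gap over range). Both cases found lay in MR5 of FJDHF-M. Its Col3a1/Col1a1 ratio of 5.02 was above the 1.25 to 1.74 of the other 4 FJDHF-M libraries, with a gap over range of 0.765 on the log2 scale. Its Col6a1/Col6a2 ratio of 5.10 was above their 2.60 to 3.10, with a gap over range of 0.736 on the log2 scale. MR5 also had the lowest GC slope of its group, at -0.55. In MXL12, the Model library of nearly the same slope, the ratios were 4.61 and 4.54. The transcripts of Col6a1 and Col6a2 have nearly the same GC content (56.7% and 56.2%). The part of the slope in these ratios was not tested. Chance flags about 1 in 20 groups, which is 2.7 of the 54 examined, so 2 is no more than chance gives.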

How the results depend on the processing

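Col3a1, Col1a2, Col5a1, Col6a3, Col7a1, Col14a1, Col12a1, Col6a4, Col11a1 and Col22a1 kept the direction of their fold change under every alternative of the fit across all genes, except that Col22a1 was filtered out where at least 10 counts in every library were required. The number of collagen genes at an unadjusted p under 0.05 was 2 (1.53% of all tested genes). It became 4 with DESeq2's Wald test (2.22% of all), 1 with limma on FPKM (1.62%) and 1 with at least 10 counts in every library (1.58%). With single libraries left out it was 0 to 4 (0 without MR3_4). The share of all tested genes then lay between 1.07% (without MR4_5) and 3.37% (without MXL1). It was 5 collagen genes with GC offsets (1.90% of all). The replicate block, from numbers that the column codes share, gave 1 collagen gene and 257 of 20817 genes at this threshold, and 5 collagen genes together with GC offsets. Libraries of the same number correlated at 0.22 (number 1), -0.22 (3_4) and 0.12 (3), so the numbers were not taken as pairs. The genes of the pathway lists at this threshold numbered 1, and 0 with the replicate block, 2 with GC offsets and 1 to 3 with single libraries left out (3 without MR1). The shares of all tested genes are those given above for the same fits, and 1.18% without MR1.

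The medians of the classes ranged with single libraries left out from -0.43 to 0.21 (fibrillar), from -0.08 to 0.22 (basement membrane) and from -0.40 to 0.12 (other). The direction turned with single libraries left out for Col1a1 (-0.71 to 0.21), Col5a2 (-0.26 to 0.0066), Col4a1 (-0.21 to 0.20), Col4a2 (-0.20 to 0.13), Col6a1 (-0.24 to 0.13), Col6a2 (-0.13 to 0.40), Col17a1 (-0.34 to 0.57), Col6a5 (-1.91 to 0.25) and Col9a3 (-1.29 to 0.48). With limma on FPKM it turned for Col4a1 (0.038), Col4a2 (0.033), Col6a1 (0.021) and Col17a1 (0.18), with at least 10 counts in every library for Col4a1 (0.0052), with the replicate block for Col4a1 (0.26), Col4a2 (0.14) and Col6a1 (0.12), with GC offsets for Col17a1 (0.037), and with GC offsets and the replicate block for Col4a1 (0.13), Col4a2 (0.014) and Col6a1 (0.0019). The difference in mean log2 CPM turned on GC-corrected CPM for Col4a1 (-0.084) and Col4a2 (-0.079), and on FPKM for Col6a1 (0.021).

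The group differences of the log2 ratios ranged with single libraries left out from -0.030 to 0.58 (Col1a1/Col1a2), -0.64 to 0.021 (Col3a1/Col1a1), -0.25 to 0.32 (Col5a1/Col1a1), -0.091 to 0.19 (Col5a2/Col5a1) and -0.11 to 0.074 (Col4a2/Col4a1), and that of Col4a2/Col4a1 turned to 0.0055 in GC-corrected CPM. The other ratios kept their direction. The causes were not tested. Depth limits the members under 1 FPKM, such as Col6a4, Col9a3 and Col22a1.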
